A study of Rattus norvegicus with 14 samples.

Results

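Transcripts of 7 genes that make or remove reactive oxygen species were followed in glomeruli of Dahl salt-sensitive rats. The genes were chosen by Ensembl ID: Nox4 (ENSRNOG00000013925), Cyba (ENSRNOG00000013014), Sod1 (ENSRNOG00000002115), Sod2 (ENSRNOG00000019048), Cat (ENSRNOG00000008364), Hmox1 (ENSRNOG00000014117) and Nqo1 (ENSRNOG00000012772). The symbols came with this list, since the deposited table gives IDs without names. All 7 IDs were among the 12934 in the table, and 7 of 7 passed the filter on low counts, which left 11158 genes to be tested. The rats were males of the inbred strain SS/JrHsdMcwiCrl, which becomes hypertensive when fed salt. From 8 weeks of age and for 21 days, 1 group ate chow with 4% NaCl (high salt) and the other chow with 0.4% NaCl (normal salt, called low salt in the title of the series). Glomeruli were sieved from the kidney cortex and frozen. There were 7 libraries on each diet, named here by the number in their titles, odd for high salt and even for normal salt. What this number records, and whether every library stands for a different rat, is not in the labels. The p-values therefore reflect only how far libraries scattered, part of which may be technical.

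NADPH oxidases pass electrons from NADPH to oxygen. Nox4, the main catalytic isoform of the kidney, releases mostly hydrogen peroxide, and Cyba encodes p22phox, the membrane partner that Nox4 needs. Superoxide dismutases turn superoxide into hydrogen peroxide, in the cytosol (Sod1) and in mitochondria (Sod2), and catalase (Cat) breaks down hydrogen peroxide in peroxisomes. Hmox1, heme oxygenase, degrades heme, and Nqo1 reduces quinones. Both can be induced through the transcription factor NRF2, which binds antioxidant response elements. Oxidative stress in the kidney is a long-studied feature of salt-sensitive hypertension in this strain.

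Promoter sequences are shown for Nox4 and the 3 genes that varied with it from library to library (Cat, Sod1 and Sod2), and for Nqo1, which varied opposite to Nox4, Sod1 and Sod2. They are the 250 bases before the RefSeq start of each gene in build GRCr8, 5′ to 3′ in the direction of the gene. By symbol, 6 of the 7 genes were matched, all but Hmox1. Capitals mark matches, on either strand, to the antioxidant response element TGACNNNGC, the CCAAT box CCAAT, the GC box GGGCGG and the TATA box TATAAA.
Nox4 (chr1:150313639-150313888, plus strand): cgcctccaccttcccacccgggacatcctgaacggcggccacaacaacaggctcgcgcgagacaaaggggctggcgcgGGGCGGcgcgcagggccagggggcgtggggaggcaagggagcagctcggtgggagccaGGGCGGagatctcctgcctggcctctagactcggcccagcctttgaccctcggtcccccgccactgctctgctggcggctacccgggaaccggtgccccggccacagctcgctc
Cat (chr3:110329527-110329776, minus strand): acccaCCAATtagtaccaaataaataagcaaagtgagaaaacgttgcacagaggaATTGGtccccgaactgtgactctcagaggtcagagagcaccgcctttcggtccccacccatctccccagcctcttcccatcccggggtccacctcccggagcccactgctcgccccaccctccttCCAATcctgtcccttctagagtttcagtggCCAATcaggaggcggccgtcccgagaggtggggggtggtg
Sod1 (chr11:42942573-42942822, plus strand): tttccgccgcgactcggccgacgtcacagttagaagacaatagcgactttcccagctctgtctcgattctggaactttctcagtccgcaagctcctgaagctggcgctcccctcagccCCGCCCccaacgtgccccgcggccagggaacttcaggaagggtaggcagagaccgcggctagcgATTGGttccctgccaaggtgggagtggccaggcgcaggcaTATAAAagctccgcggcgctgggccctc
Sod2 (chr1:50050169-50050418, minus strand): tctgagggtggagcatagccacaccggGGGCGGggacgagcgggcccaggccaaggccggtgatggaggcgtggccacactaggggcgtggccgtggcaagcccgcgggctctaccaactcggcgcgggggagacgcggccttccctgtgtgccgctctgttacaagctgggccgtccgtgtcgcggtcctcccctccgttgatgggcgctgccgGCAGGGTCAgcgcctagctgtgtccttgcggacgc
Nqo1 (chr19:52220268-52220517, minus strand): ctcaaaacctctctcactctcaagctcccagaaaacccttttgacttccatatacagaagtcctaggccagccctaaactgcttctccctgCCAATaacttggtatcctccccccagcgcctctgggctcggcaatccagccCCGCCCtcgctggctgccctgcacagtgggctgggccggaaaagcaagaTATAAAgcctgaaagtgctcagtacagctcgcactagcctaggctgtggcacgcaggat
Of 33469 rat promoters of this length, 10.1% held the antioxidant response element, 34% a CCAAT box, 30.5% a GC box and 12.9% a TATA box. Nox4 held 2 GC boxes and no other of these motifs. The Cat promoter held 4 CCAAT boxes. Sod1 and Nqo1 each held 1 CCAAT box, 1 GC box and 1 TATA box, and Sod2 held 1 GC box and 1 antioxidant response element. No 2 matches to the same motif overlapped. These matches are letters in a sequence and were not tested as binding sites. Bases farther upstream were not searched. The lack of an antioxidant response element in Nqo1 thus holds for these 250 bases only.

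The libraries held 13797146 to 18151197 counts, and the total did not differ between the diets beyond the scatter of the libraries (two-sided exact permutation test, p = 0.211). The 10 most abundant genes took 30.8% to 64.9% of the counts, the least in high salt library 21 and the most in high salt library 15. Levels are given in CPM, the count as a share of the library total after correction by TMM factors. The TMM factor was furthest below 1 in high salt library 15 (0.66) and furthest above 1 in high salt library 21 (1.29). These are 3' tag libraries, in which a transcript gives about the same number of tags whatever its length, so CPM were compared between genes without division by length. The labelled tissue could not be checked against marker genes, because IDs other than those of the 7 genes were not paired with names.

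Sod1 and Cat were among the most abundant transcripts, and Hmox1 and Nqo1 lay in the lower part of the range. Sod1 was the highest, at 513 ± 83.7 CPM (SD, n = 14), above 99% of the tested genes. Cat followed at 263 ± 56.8 CPM, Sod2 at 97.1 ± 14.2 CPM, Cyba at 68.6 ± 12.4 CPM and Nox4 at 59.2 ± 25.6 CPM (SD, n = 14 each). Hmox1 at 9.82 ± 4.17 CPM and Nqo1 at 4.42 ± 1.005 CPM followed, above 38.9% and 24.7% of the tested genes. Each gene exceeded the next in this order in 13 or 14 of the 14 libraries, with the exception of Cyba and Nox4. Cyba was higher than Nox4 in 9 libraries and not in the other 5, and the difference in level between these partners was not tested.

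The genes also differed in how far their levels ranged between libraries. Hmox1 spanned 7.9-fold from the lowest to the highest library, on counts of 40 to 350 per library, and Nox4 4.24-fold on counts of 425 to 1436. Nqo1 and Cyba spanned 2.13-fold and 2.11-fold, Cat 2.002-fold, and Sod1 and Sod2 1.68-fold and 1.67-fold. The SD of log2 CPM was 0.63 for Nox4, larger than in 97% of the 1480 genes within 0.5 of its mean level on the log2 scale. For Hmox1 it was 0.67, larger than in 92.5% of 1595 such genes. For Sod2 it was 0.20, larger than in 30.4% of 1065 such genes.

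**Figure D1:**
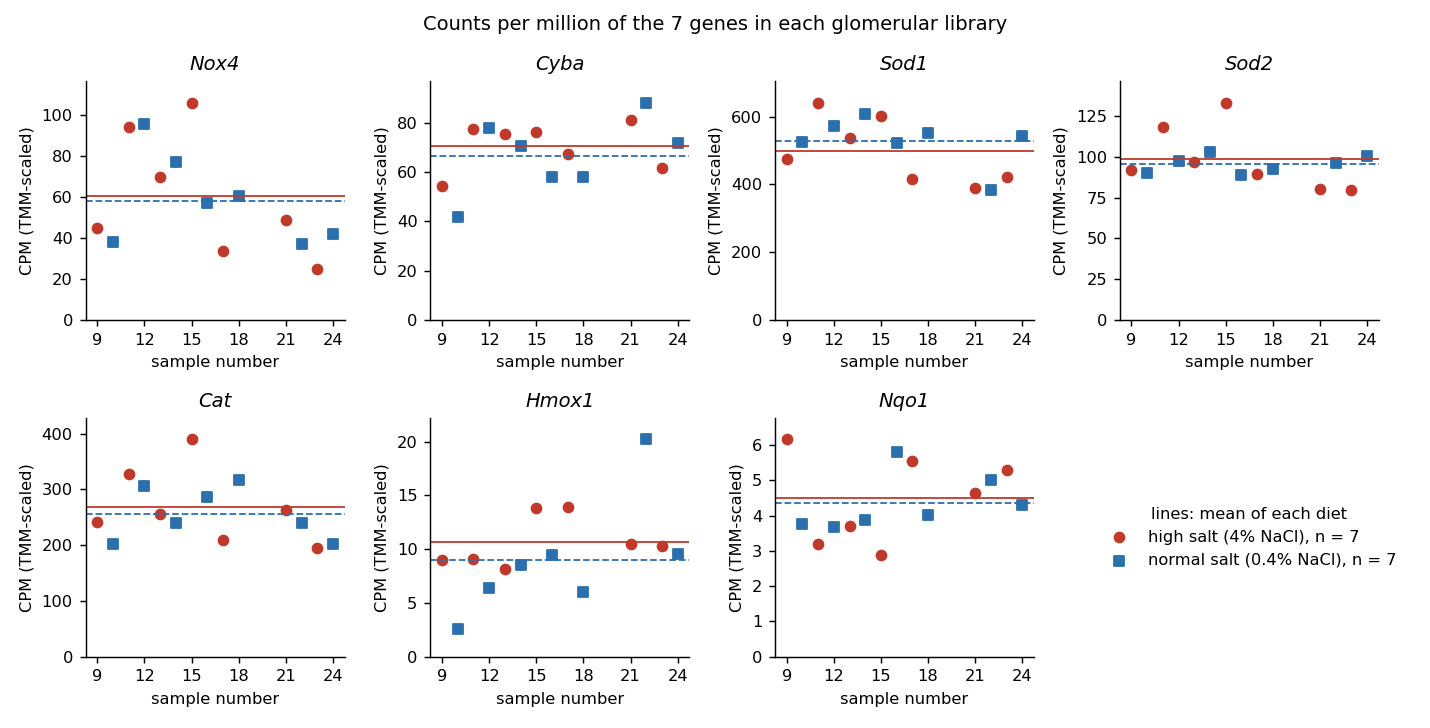
Level of each gene (CPM, linear axis from 0) against the sample number of the 14 libraries, with high salt as red circles, normal salt as blue squares and a line at the mean of each diet. The diets overlap in all 7 panels, Nox4 is highest in libraries 11, 12 and 15, and Hmox1 is lowest in library 10 and highest in library 22.

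None of the 7 genes passed the test for a difference between the diets. By edgeR's quasi-likelihood test 0 of 7 were called at an adjusted p below 0.05, as were 0 of all 11158 tested genes (0%), and 0 of 7 had an unadjusted p below 0.05 against 1.81% of all tested genes. The diets overlapped in all 7 genes, and they did not overlap in 0.0179% of all tested genes. The median log2 fold change of the 7 genes was 0.05 and that of all tested genes was -0.0023. In bulk tissue, fewer cells of a type and less RNA per cell cannot be told apart, and this holds for each level given here. DESeq2 and limma voom also called 0 of 7 for diet.

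For the oxidase genes, Nox4 on high salt ran from 24.96 CPM through a median of 48.9 to 106 CPM, and on normal salt from 36.9 through 57.0 to 95.5 CPM. The high salt libraries thus held both the lowest and the highest value. High salt libraries averaged 60.2 ± 30.6 CPM and normal salt libraries 58.1 ± 21.9 CPM (SD, n = 7 per diet). The log2 fold change was 0.05 with a 95% interval of -0.59 to 0.69 (edgeR, adjusted p = 0.9997). Its sign changed with single libraries, to -0.14 without high salt library 15, and with the sample number in the model, to -0.052. Cyba ran from 54.6 through 75.5 to 81.1 CPM on high salt and from 41.8 through 70.4 to 88.2 CPM on normal salt. The normal salt libraries enclosed the high salt ones, and the log2 fold change was 0.08 with an interval of -0.22 to 0.39.

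Among the superoxide dismutases, Sod1 ran from 390 through 476 to 641 CPM on high salt and from 382 through 543 to 607 CPM on normal salt. In 5 of 7 high salt libraries it lay below the normal salt median. The log2 fold change was -0.09 with an interval of -0.37 to 0.19. Sod2 ran from 79.9 through 92.0 to 133 CPM on high salt and from 88.7 through 96.1 to 103 CPM on normal salt. Its normal salt libraries all lay inside the high salt range, with an SD of 5.31 CPM against 20.01 CPM on high salt, a difference in spread that was not tested. The log2 fold change of Sod2 was 0.04 with an interval of -0.20 to 0.29.

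Catalase transcripts ran from 195 through 256 to 390 CPM on high salt and from 202 through 240 to 316 CPM on normal salt. The lowest and the highest library were both on high salt, and the log2 fold change was 0.07 with an interval of -0.26 to 0.41.

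Of the inducible enzymes, Hmox1 ran from 8.17 through 10.3 to 13.9 CPM on high salt and from 2.56 through 8.55 to 20.2 CPM on normal salt. In 6 of 7 high salt libraries it lay above the normal salt median, and 3 normal salt libraries lay below every high salt library while 1 lay above all of them. High salt libraries averaged 10.7 ± 2.32 CPM and normal salt libraries 8.95 ± 5.53 CPM (SD, n = 7 per diet). The log2 fold change was 0.25 with an interval of -0.40 to 0.90 (edgeR, adjusted p = 0.9997). It moved to 0.59 without normal salt library 22 (edgeR, adjusted p = 0.806, the lowest of 23 alternatives, which ran to 1) and to 0.086 without normal salt library 10, the libraries with the highest and the lowest level. It was 0.43 with the number as a covariate, 0.42 with consecutive numbers as blocks, 0.39 with limma voom, 0.57 in numbers 9 to 16 and 0.45 as a difference of mean log2 CPM. In numbers 17 to 24 it was -0.044. With RLE factors or no filter it was 0.25, with upper quartile factors 0.24 and with DESeq2 0.26. Nqo1 ran from 2.88 through 4.63 to 6.16 CPM on high salt and from 3.66 through 4.03 to 5.79 CPM on normal salt, on 31 to 99 counts per library. Its log2 fold change was 0.05 with an interval of -0.36 to 0.46.

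In 5 of 7 genes (Cyba, Sod1, Sod2, Cat and Nqo1) the 95% interval excluded both a 1.5-fold rise and a 1.5-fold fall, against 59.5% of all tested genes; with numbers 9 to 16 or 17 to 24 alone it did so in 2 of 7. A 2-fold rise and a 2-fold fall lay outside it in 7 of 7 genes, against 87.1%. For Nox4 the interval of the fold on high salt was 0.66 to 1.62, and for Hmox1 it was 0.76 to 1.87. The bound of 2-fold did not hold for Hmox1 in 5 alternatives. Its interval was 0.91 to 2.003 with the number as a covariate, 0.88 to 2.02 in blocks and 0.87 to 2.53 in numbers 9 to 16. Without normal salt library 22 it was 1.04 to 2.17, and without high salt library 13 its upper end was 2.0002. For Nox4 the bound did not hold in numbers 17 to 24 (0.496 to 1.17). The authors' deposited table gives log2 fold changes of 0.05 for Nox4, 0.09 for Cyba, -0.08 for Sod1, 0.05 for Sod2, 0.07 for Cat, 0.26 for Hmox1 and 0.05 for Nqo1, with no error.

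**Figure D2:**
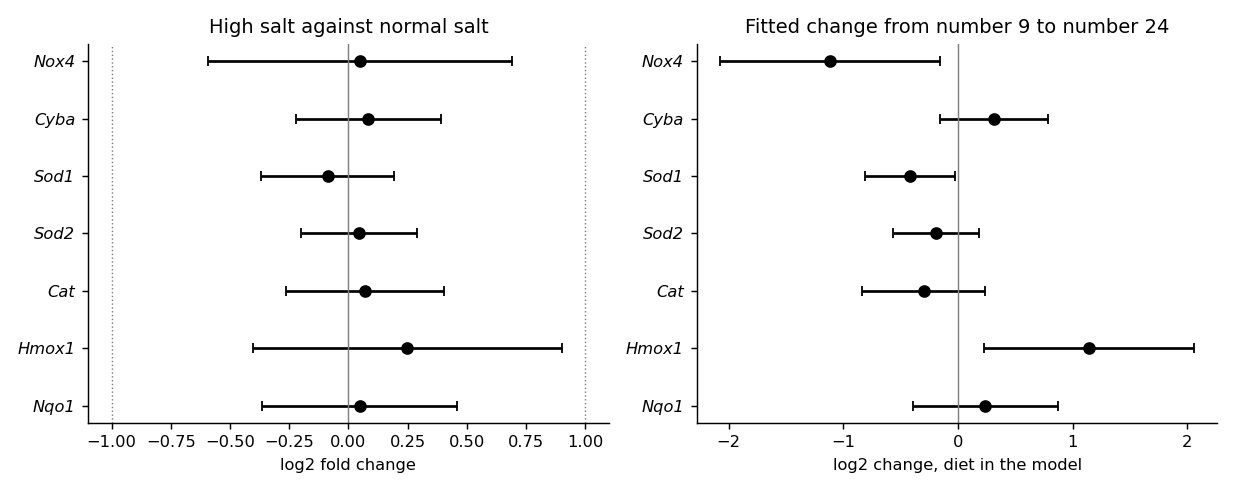
Estimated log2 change of each gene (points) with 95% intervals (bars) for high salt against normal salt on the left, dotted lines marking 2-fold, and for the linear trend from sample number 9 to 24 with diet in the model on the right. All 7 diet intervals include 0 and stay inside 2-fold, and the trend intervals of Nox4, Sod1 and Hmox1 do not include 0.

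The level of Nox4 was lower, and that of Hmox1 higher, in libraries with higher sample numbers, but neither passed the adjusted threshold. With diet in the model, edgeR called 0 of the 7 genes for a linear trend along the number, against 12.7% of all tested genes (6.97% higher and 5.74% lower at higher numbers). That share moved with single libraries: it was 4.0% without normal salt library 22, 4.56% without 10 and 6.78% without 12 of the same diet, and 4.87% without high salt library 9 and 8.22% without 21. At an unadjusted p below 0.05 it listed 3 of 7 genes, against 32% of all tested genes. From number 9 to number 24 the fitted log2 change of Nox4 was -1.11 ± 0.45 (SE), with a 95% interval of -2.07 to -0.16 (edgeR, unadjusted p = 0.0252, adjusted p = 0.104). That of Hmox1 was 1.14 ± 0.43, with an interval of 0.22 to 2.06 (edgeR, unadjusted p = 0.0177, adjusted p = 0.0852). Sod1 had -0.42 ± 0.18 (edgeR, unadjusted p = 0.0381, adjusted p = 0.133). The other genes had -0.30 ± 0.25 (Cat), -0.19 ± 0.18 (Sod2), 0.31 ± 0.22 (Cyba) and 0.24 ± 0.30 (Nqo1). Leaving out 1 library moved these values from -0.48 (without normal salt 10) to -0.14 (without high salt 23) for Cat and from -0.29 (without normal salt 24) to -0.085 (without high salt 23) for Sod2. Cyba ran from 0.12 (without normal salt 10) to 0.48 (without high salt 23), and Nqo1 from 0.15 (without high salt 11) to 0.56 (without high salt 9). Nox4 ran from -1.46 to -0.81, Sod1 from -0.56 to -0.32 and Hmox1 from 0.70 to 1.46.

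The call for Nox4 and Hmox1 depended on the tool. DESeq2 called both for the trend, Nox4 with an adjusted p of 0.0432 and Hmox1 with an adjusted p of 0.0403, in a fit that called 17.1% of all genes. Over 20 alternatives the adjusted p ran from 0.0432 to 0.247 for Nox4 and from 0.0403 to 0.266 for Hmox1. Without high salt library 23, edgeR called Hmox1 (log2 change 1.46, adjusted p = 0.0419) and 18.8% of all tested genes. Without normal salt library 22 the log2 change of Hmox1 fell to 0.70 (edgeR, adjusted p = 0.266). No gene of the 7 passed the test for a diet difference that changed along the number (0 of 7 and 0% of all tested genes, edgeR interaction term). At an unadjusted p below 0.05 this term listed 0 of 7 genes against 1.91% of all tested genes, and its lowest p in the group was 0.056, for Hmox1.

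Over the 14 libraries, Nox4 transcripts varied together with those of Cat, Sod1 and Sod2, and opposite to those of Nqo1. Each of these relations was weaker within normal salt than within high salt, a difference that was not tested. Correlations of log2 CPM were computed for the 21 pairs of genes over the 14 libraries, and 9 pairs had a Benjamini-Hochberg adjusted p below 0.05 over the 21 pairs (permutation test, 100000 permutations). The closest pair was Nox4 with Cat, with Pearson r = 0.85 (permutation p = 6e-05, adjusted p = 0.0013) and Spearman rho = 0.85 (adjusted p = 0.0040). Libraries 15, 11 and 12 were high in both genes, with Nox4 at 106, 94.0 and 95.5 CPM and Cat at 390, 328 and 306 CPM. Libraries 23, 17 and 10 were low in both, with Nox4 at 24.96, 33.4 and 38.0 CPM and Cat at 195, 210 and 202 CPM. Other libraries followed less closely. Library 22 had Nox4 at 36.9 CPM with Cat at 240 CPM, and library 18 had Nox4 at 60.6 CPM with Cat at 316 CPM. Without libraries 15 and 23, the farthest from the median of Nox4, r was 0.77 (permutation p = 0.0040). It was 0.95 within high salt and 0.68 within normal salt (n = 7 each), and 0.86 after the diet and the number had been removed.

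The correlation extended to the dismutases. With Sod1 it had r = 0.78 (permutation p = 0.0010, adjusted p = 0.0091) and rho = 0.80, and r was 0.75 without libraries 15 and 23. With Sod2 it had r = 0.74 (permutation p = 0.0017, adjusted p = 0.0091) and rho = 0.71. This pair depended more on those libraries, with r = 0.56 without them (permutation p = 0.0542), and r was 0.88 within high salt and 0.29 within normal salt. Sod1 with Sod2 had r = 0.71 (permutation p = 0.0033, adjusted p = 0.0126), rho = 0.79, and r = 0.77 without libraries 21 and 22. Within a diet it was 0.92 on high salt and 0.23 on normal salt (n = 7 each), and the difference between the diets was not tested. Sod2 with Cat had r = 0.64 (permutation p = 0.0132, adjusted p = 0.0309) but rho = 0.46 (adjusted p = 0.185). Without libraries 11 and 15 r was 0.15 and did not pass (permutation p = 0.644). For this pair r was 0.89 within high salt and -0.25 within normal salt (n = 7 each). Sod1 with Cat had r = 0.53 (permutation p = 0.0533, adjusted p = 0.102).

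Nqo1 ran the other way. It had r = -0.73 with Nox4 (permutation p = 0.0036, adjusted p = 0.0126) and rho = -0.73, and r = -0.64 without libraries 15 and 23. With Sod1 it had r = -0.71 (permutation p = 0.0048, adjusted p = 0.0142), rho = -0.75, and r = -0.80 without libraries 21 and 22. With Sod2 it had r = -0.74 (permutation p = 0.0017, adjusted p = 0.0091) and rho = -0.74. Without libraries 11 and 15, the farthest from the median of Sod2, r was -0.47 and did not pass (permutation p = 0.129). That omission leaves fewer libraries and a narrower range of Sod2, so it cannot tell a lost relation from lower power. With Cat, Nqo1 had r = -0.56, which missed the threshold (permutation p = 0.0380, adjusted p = 0.0798). Within high salt, r of Nqo1 was -0.89 with Nox4, -0.81 with Sod1, -0.82 with Sod2 and -0.87 with Cat (n = 7). Within normal salt these values were -0.36, -0.55, -0.41 and 0.10 (n = 7), and the difference between the diets was not tested. Nqo1 was lowest in high salt libraries 15 and 11, at 2.88 and 3.21 CPM. These libraries had the highest 2 levels of Sod2 (133 and 118 CPM) after scaling by TMM factors of 0.66 and 0.88. Their Sod2 counts were 1431 and 1810, inside the range of 1220 to 1855 over all libraries. The factor of a library enters the CPM of all its genes, and its part in the correlations was not tested.

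**Figure D3:**
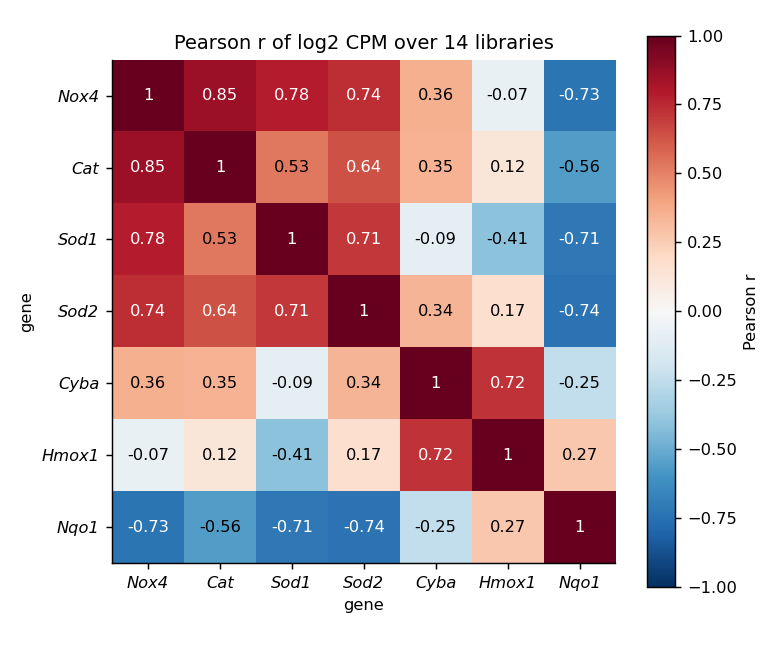
Pearson r of log2 CPM over the 14 libraries for each pair of the 7 genes, from -1 (blue) to 1 (red), with the value in each cell. Nox4, Cat, Sod1 and Sod2 form a positive block with r from 0.53 to 0.85, and Nqo1 has negative r with each of them.

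The correlation of the partners Nox4 and Cyba across all libraries did not pass (r = 0.36, permutation p = 0.213, adjusted p = 0.329, rho = 0.32). Within a diet r was 0.61 on high salt and 0.24 on normal salt (n = 7 each). After the diet and the number had been removed, r of this pair was 0.73. Cyba with Hmox1 had r = 0.72 (permutation p = 0.0054, adjusted p = 0.0142) but rho = 0.44 (adjusted p = 0.202). That relation rests on normal salt library 10, the lowest in both genes (Cyba 41.8 CPM, Hmox1 2.56 CPM), and r was 0.42 without it. The NRF2-inducible pair Hmox1 and Nqo1 had r = 0.27 (permutation p = 0.358, adjusted p = 0.470).

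Many other genes had correlations of this size with the 7 genes. An absolute r of at least 0.7 was reached with Nox4 by 6.87% of the other 11157 tested genes, with Cyba by 6.88%, with Sod1 by 8.1% and with Sod2 by 2.66%. It was reached with Cat by 5.74%, with Hmox1 by 12.3% and with Nqo1 by 2.73%. An absolute r as high as that of Nox4 with Cat was reached with Cat by 0.959% of genes and with Nox4 by 2.14%. Among 6764 other genes with at least 10 CPM, 101 had r of at least 0.9 with Nox4, 22 with Cat, 8 with Sod1 and 3 with Cyba. The gene most like Nox4 was ENSRNOG00000020039 (r = 0.98, 91.9 CPM), and the gene most like Hmox1 was ENSRNOG00000020063 (r = 0.97, 51.1 CPM), both over 14 libraries. These IDs were not paired with names.

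Depth and composition were set beside these patterns. Of 30 relations between the levels or ratios and the sample number, the total count or the share of the 10 most abundant genes, none passed after adjustment (lowest adjusted p = 0.153, permutation tests). The share of the 10 most abundant genes had r = 0.59 with Sod2 (permutation p = 0.0286, adjusted p = 0.329), 0.52 with Sod1, 0.49 with Cat, 0.37 with Nox4 and -0.40 with Nqo1. Without libraries 15 and 21, the farthest in this share, these values were 0.005 for Sod2, 0.25 for Sod1, 0.33 for Cat, 0.14 for Nox4 and -0.12 for Nqo1. Without library 15 alone, r of Nox4 was 0.82 with Cat, 0.67 with Sod2 and -0.66 with Nqo1. That of Sod2 was -0.63 with Nqo1 and 0.41 with Cat, and 7 pairs passed in place of 9. The part of this share in the correlations was not tested.

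**Figure D4:**
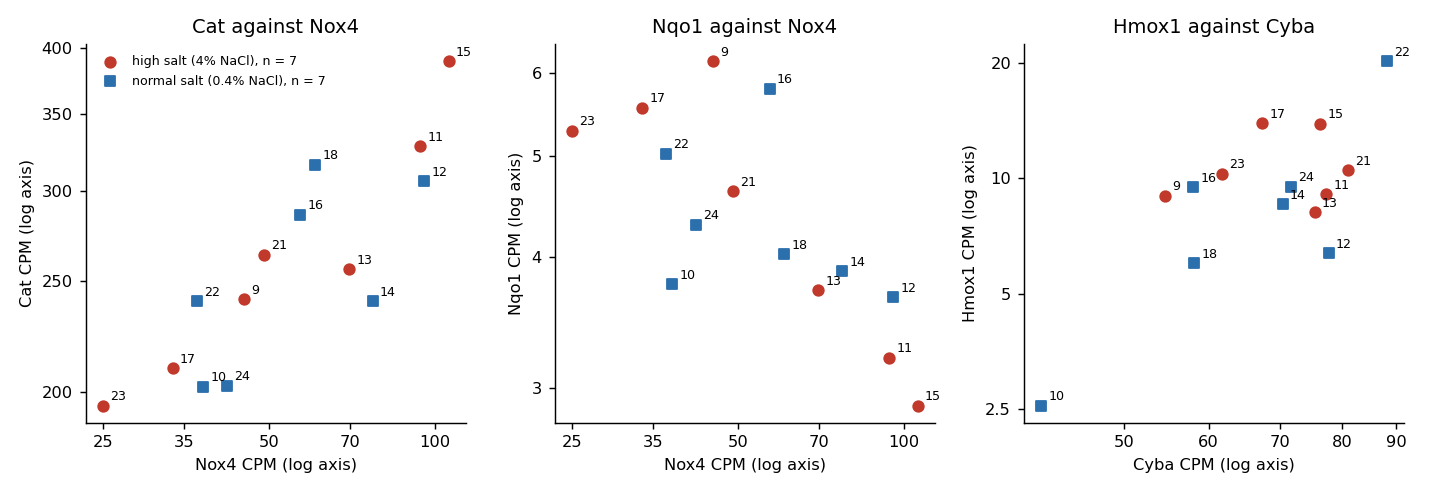
Level of Cat against Nox4, Nqo1 against Nox4 and Hmox1 against Cyba (CPM, both axes logarithmic), 1 point per library labelled with its sample number, red circles for high salt and blue squares for normal salt. Cat is higher where Nox4 is higher, from library 23 to library 15, Nqo1 is lowest where Nox4 is highest, and library 10 stands apart at the low end of Hmox1 and Cyba.

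Ratios of counts within a library need no scaling between libraries, and 3 were compared between the diets. Nox4 to Cyba stood at 0.836 ± 0.368 in the high salt group and at 0.894 ± 0.290 in the normal salt group (SD, n = 7 per diet). The log2 difference was -0.14 (exact permutation test, two-sided, p = 0.677, adjusted p = 0.677 over 3 ratios). It ranged 3.43-fold, from 0.404 in high salt library 23 to 1.39 in high salt library 15. Both extremes were on the same diet. The ratio was 1.07 ± 0.194 (SD) in the 8 libraries numbered 9 to 16 and 0.591 ± 0.235 in the 6 numbered 17 to 24. This relation was examined after the levels had been seen. Over the 14 libraries the log2 ratio had r = -0.71 with the sample number (permutation p = 0.0051, adjusted p = 0.153 over 30 relations) and rho = -0.56. Within a diet r was -0.72 on high salt and -0.77 on normal salt (n = 7 each).

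The ratio of cytosolic to mitochondrial superoxide dismutase, Sod1 to Sod2, averaged 5.06 ± 0.390 in the high salt group and 5.54 ± 0.714 in the normal salt group (SD, n = 7 per diet). The log2 difference was -0.12 (exact permutation test, two-sided, p = 0.208, adjusted p = 0.364 over 3 ratios). High salt libraries ran from 4.53 to 5.53. Of the normal salt libraries, numbers 10, 12, 14, 16 and 18 lay between 5.81 and 5.94, above every high salt library, number 24 stood at 5.38 and number 22 at 3.98, below them all. Without normal salt library 22 the log2 difference was -0.20 with an unadjusted exact permutation p of 0.0041, 1 of 14 omissions tried for each of the 3 ratios. Over the other omissions the difference kept its sign without passing. Library 22 also had the highest Hmox1 level and the lowest Sod1 level of the normal salt group.

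Hmox1 to Nqo1 averaged 2.57 ± 1.07 in the high salt group and 1.998 ± 1.03 in the normal salt group (SD, n = 7 per diet). The log2 difference was 0.44 (exact permutation test, two-sided, p = 0.242, adjusted p = 0.364 over 3 ratios). It ranged from 0.678 in normal salt library 10 to 4.81 in high salt library 15, and the diets overlapped.

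**Figure D5:**
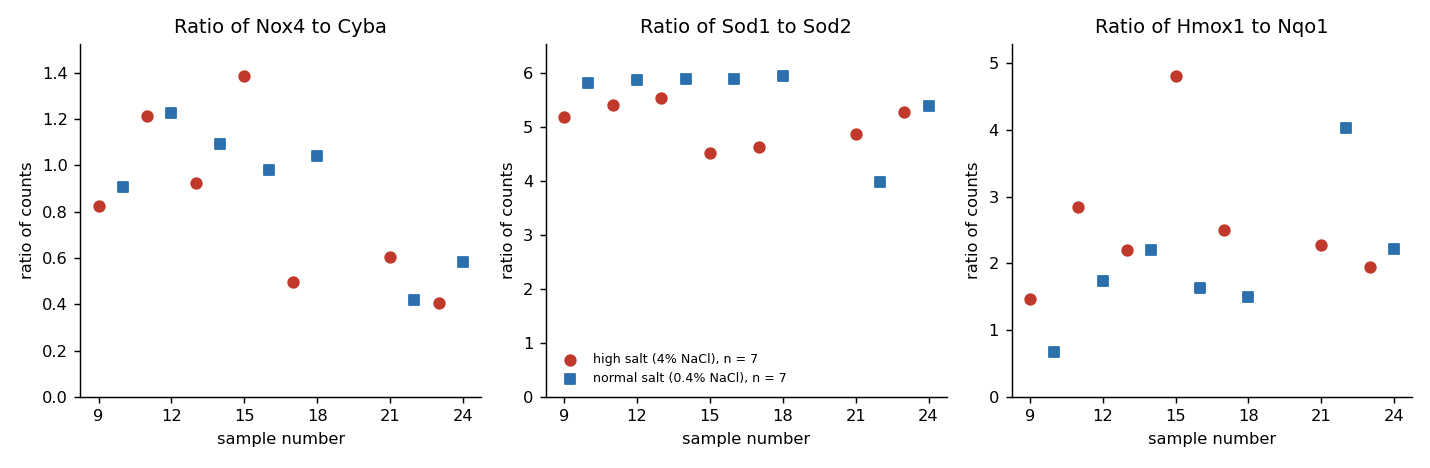
Ratio of counts within each library (linear axis from 0) against sample number for Nox4 to Cyba, Sod1 to Sod2 and Hmox1 to Nqo1, red circles for high salt and blue squares for normal salt. Nox4 to Cyba is highest in library 15 at 1.39 and lowest in library 23 at 0.404, and Sod1 to Sod2 is at 5.81 to 5.94 in 5 normal salt libraries and at 3.98 in normal salt library 22.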

How the data were processed

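RNA of 14 glomerular libraries was extracted with TRIzol, prepared with the Lexogen QuantSeq FWD kit for 3' ends and sequenced on an Illumina NextSeq instrument, per the labels' protocols. The authors deposited raw counts per Ensembl gene ID. They also deposited a normalized signal, the counts divided by 1 factor per library, with diet means and the log2 of their fold. DESeq2 1.18.1 in R 3.4.3 was used, per the submitters' processing notes, which name GRCm38, a mouse build, although the IDs are rat IDs. For the aligner, the counting program and its strand setting, and molecular identifiers, the sources used here give nothing, so no coordinates are given for the counted genes. The RefSeq table (GRCr8) holds none of the Ensembl IDs, so the planned lists of other pathway genes and cell type markers could not be applied.

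Diet, trend and interaction were tested over the whole table with the robust quasi-likelihood F-test of edgeR 4.0.16 under R 4.3.3, after TMM scaling and filterByExpr. The threshold was 0.05 on p adjusted by Benjamini-Hochberg. Intervals at 95% came from the F statistic. Log2 CPM used a prior count of 2. Exact permutation tests used all 3432 ways to label 7 of the 14 libraries as high salt. The fits were tested on simulated counts, drawn independently for each gene. Genes in the real libraries varied together, so the simulation cannot tell how the fits behave under such shared variation. Alternatives were factors by RLE or upper quartile, no filter, DESeq2 1.42.0, limma 3.58.1, number as covariate or block, ranges of the number, and leaving out each library. Among 42 pairs of libraries of the same diet none were duplicates (chi-square per degree of freedom 18.0 to 385.5). The named genes are the 7 members and, for likeness, the most correlated gene of at least 10 CPM, with IDs printed for 2 of them. The members and lists were chosen with earlier results of these data known.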

Additional observations from a re-analysis of the deposited data

Results flagged for a closer look

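Of 20 groups tested (7 genes and 3 ratios in each diet), 4 held a library far from the other 6 of its diet. The distance was measured on linear CPM and linear ratios. The rule is meant to flag about 1 in 20 groups by chance, but this rate was not checked for values on that scale. The count of 4 was therefore not read as an excess. The 4 flags are also not independent, since 3 concern normal salt library 22. In that library Sod1 stood at 382 CPM, below the other normal salt libraries, and Hmox1 at 20.2 CPM, above them. Its ratio of Sod1 to Sod2 was 3.98, the lowest of all 14 libraries. In high salt library 15 the ratio of Hmox1 to Nqo1 was 4.81, above the other high salt libraries, on the lowest Nqo1 count of all libraries (31). Library 15 also had the largest share of counts in the 10 most abundant genes (64.9%). On the log2 scale the gaps of Hmox1 and of Hmox1 to Nqo1 took up less of the range. Log2 CPM of Hmox1 was 4.34 in library 22 and ran from 1.42 to 3.27 in the other normal salt libraries. The log2 ratio of Hmox1 to Nqo1 was 2.265 in library 15 and ran from 0.551 to 1.504 in the other high salt libraries. The flags were not tested on the log2 scale.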

How the results depend on the processing

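No paired analysis was possible because the diets share no sample number, and consecutive numbers served as a block instead. The count of genes called for diet was 0 under every alternative run, and 0 to 0 over the libraries left out. Genes called for the trend numbered 2 with DESeq2, and 0 to 1 over the libraries left out. The cause was not tested. The 9 correlated pairs became 7 with Spearman's rho and 7 to 10 over the libraries left out. Small diet estimates changed sign. Nox4 had -0.11 with limma voom, -0.052 with the number as covariate, -0.029 in blocks, -0.033 as a difference of mean log2 CPM and -0.39 in numbers 17 to 24. In numbers 17 to 24 the log2 change was -0.058 for Cyba, -0.22 for Sod2, -0.19 for Cat and -0.044 for Hmox1. In numbers 9 to 16 it was 0.021 for Sod1 and -0.093 for Nqo1. No diet estimate passed in either range, and fewer libraries were tested there. Over the libraries left out, diet estimates ran from -0.14 to 0.21 for Nox4, -0.0038 to 0.16 for Cyba, -0.16 to -0.02 for Sod1, -0.041 to 0.11 for Sod2, -0.041 to 0.14 for Cat, 0.086 to 0.59 for Hmox1 and -0.043 to 0.13 for Nqo1. The interaction called 0 to 0 genes, and its estimates per number changed sign for Nox4 (-0.083 to 0.013), Cat (-0.044 to 0.0062) and Nqo1 (-0.027 to 0.038). Those of Cyba (-0.049 to -0.0045), Sod1 (-0.038 to -3.8e-05), Sod2 (-0.056 to -0.029) and Hmox1 (-0.16 to -0.058) kept their sign, for Sod1 and Cyba only barely. For Hmox1 the unadjusted edgeR p was 0.0067 without normal salt library 24 (adjusted p = 0.890) and 0.276 without normal salt library 22. Log2 ratio differences ran from -0.31 to 0.014 for Nox4 to Cyba, -0.20 to -0.095 for Sod1 to Sod2 and 0.21 to 0.64 for Hmox1 to Nqo1. Nqo1 and Hmox1 had low counts, 31 to 99 and 40 to 350 per library. The SE of the diet log2 fold change was 0.20 for Nqo1 and 0.31 for Hmox1. It was 0.30 for Nox4, on 425 to 1436 counts, with a median of 0.18 over all tested genes. The part of low counts in these errors was not tested.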
